A study of Mus musculus with 11 samples.

Results

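Zbtb32 was followed as a single gene through mouse T cells that had become effectors in culture. It is represented on the array by 1 probe set (6966298), the only probe set of 16673 whose annotation lists this symbol, and it is 1 of 14835 genes that could be named. The gene was picked for its gain in cells without Thpok, that is, from its log2 values in mutant beside wild-type CD4 effectors on these same arrays. Those differences, and any other difference from the wild-type CD4 arrays, are therefore given below as a description of Zbtb32 with no test.

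The study asked how loss of Thpok changes effector T cells. Spleen T cells low for CD44, a marker of earlier activation, were stimulated through CD3 (1 µg/ml antibody) and CD28 (3 µg/ml antibody) on irradiated C57BL/6 splenocytes depleted of T cells. IL-2 at 50 U/ml, IL-12 at 10 ng/ml and anti-IL-4 at 10 µg/ml made this a Th1 culture in all groups, and sorting followed on day 4. Wild-type mice gave 3 arrays of CD4+CD8- effectors from CD4 T cells (wild-type CD4 below) and 2 arrays of effectors from CD8 T cells (wild-type CD8 below). Mice of genotype Thpokf/f CD2cre, in which a Cre recombinase under a CD2 promoter deletes the floxed gene in the T lineage, are called Thpok-deficient or mutant. Their CD4 T cells gave effectors that stayed CD4+CD8- (mutant CD4 below, 3 arrays) and effectors that carried CD8 too, CD4+CD8+ (mutant double-positive below, 3 arrays). The labels name no Cre or floxed allele in the wild-type groups and give neither age nor strain of the T cell donors. The arrays came from 2 distinct cell preparations without a statement of which array came from which. The 3 arrays of a group therefore cannot all be separate preparations, and the spread between arrays may be partly technical. Each n below counts arrays, and the tests treat arrays as independent.

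Zbtb32, also known as ROG (repressor of GATA), PLZP and FAZF, belongs to the BTB zinc finger family of transcription factors, to which Thpok itself (encoded by Zbtb7b) belongs. The BTB domain of these proteins forms dimers and recruits corepressors, and the zinc fingers bind DNA. In mouse T cells Zbtb32 was found as a partner that represses transcription driven by GATA3. It is induced by activation and is known to restrain T cell proliferation and cytokine production, to limit CD8 effector and memory responses, and to serve the proliferation of natural killer (NK) cells during viral infection by opposing Blimp-1, the product of Prdm1.

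The RefSeq promoter table (GRCm38.p6) holds 2 annotated starts of Zbtb32 on the minus strand of chromosome 7, and the array gives 1 value for the gene, so the measurements below do not say which start was used. The 250 bases before each start are shown so that both possible promoters of the measured transcript can be read. They are printed in the direction of transcription with the CCAAT box, the motif bound by NF-Y, in capitals, sought on both strands.
Zbtb32 start 1, chr7:30598910-30599159, minus strand: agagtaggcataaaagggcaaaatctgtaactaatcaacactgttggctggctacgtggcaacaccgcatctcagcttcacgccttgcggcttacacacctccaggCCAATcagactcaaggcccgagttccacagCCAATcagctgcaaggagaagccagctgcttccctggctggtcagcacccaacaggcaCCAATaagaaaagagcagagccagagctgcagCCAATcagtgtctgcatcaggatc
Zbtb32 start 2, chr7:30592943-30593192, minus strand: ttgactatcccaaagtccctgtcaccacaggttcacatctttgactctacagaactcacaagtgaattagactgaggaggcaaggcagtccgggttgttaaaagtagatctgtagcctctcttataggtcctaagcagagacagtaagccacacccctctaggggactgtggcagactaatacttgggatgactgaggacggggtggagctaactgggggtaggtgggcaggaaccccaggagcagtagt
The starts lie 5967 bases apart. The first window holds 4 CCAAT boxes, all in the forward orientation and beginning at -144, -114, -56 and -24 from the start, and the second holds 0. A box was present in 33.8% of 32851 windows of the same length, and 0.84% held at least 4; this motif was chosen after the sequence was seen. The motif TGNGGT, which covers the core bound by Runx factors, occurred 1 time before start 1 and 2 times before start 2, against at least 1 site in 40.1% and at least 2 sites in 10.4% of all windows. The GATA factor motif AGATAA, sought on both strands like the others, occurred in neither window and in 10.0% of all windows. The NFAT core GGAAA occurred in neither and in 55.6% of all. The AP-1 motif TGANTCA occurred in neither and in 6.7% of all. Among the 12 genes with a pattern most like that of Zbtb32, named further on, 9 had a window in the table. Of these 9, 6 held a CCAAT box in any of their windows, and 0 held 4 or more. The Runx core occurred in 5 of them, the NFAT core in 5, the AP-1 motif in 1 and the GATA motif in 0. These counts are per gene and the shares above per window, so the 2 are not directly comparable. No CCAAT box overlapped another motif counted here.

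The values are deposited log2 intensities after RMA, so a difference of 1 is a doubling of the signal. Wild-type CD4 replicate 3 and mutant double-positive replicate 3 had a narrow signal range, with an SD over all probe sets of 1.54 and 1.70 against 1.94 to 2.06 on the other 9 arrays. Median signal of 808 chemosensory receptor genes, which T cells are not known to use, was 4.79 and 4.21 there against 3.26 to 3.69 elsewhere. Results were therefore also taken on the 9 arrays.

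Zbtb32 read 6.99, 6.89 and 7.11 in wild-type CD4 replicates 1, 2 and 3. In mutant CD4 cells it read 10.69, 10.55 and 10.07, and in mutant double-positive cells 10.20, 10.80 and 10.80. The wild-type CD8 pair read 9.85 and 10.84. Every array of the other 3 groups stood above every wild-type CD4 array, while those 3 groups overlapped throughout. In bulk RNA, fewer cells that express a gene and less RNA per cell cannot be told apart.

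**Figure D1:**
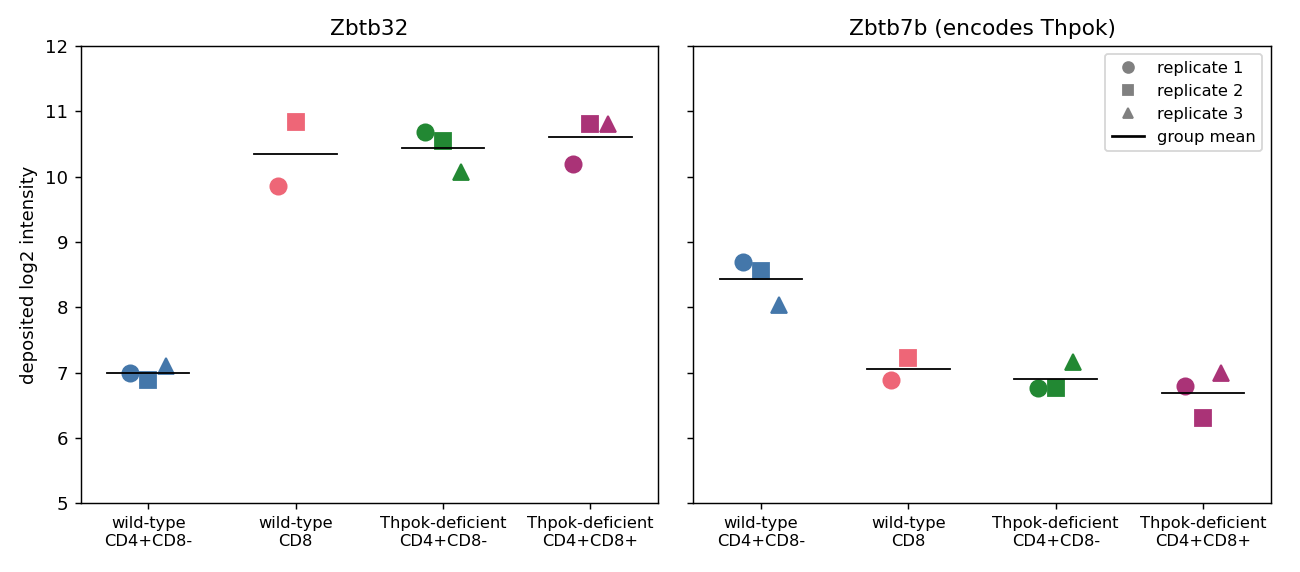
Deposited log2 intensity (y axis) of Zbtb32 and of Zbtb7b, which encodes Thpok, by group (x axis). Each symbol is 1 array, its shape the replicate number, and each bar the group mean; the 3 wild-type CD4 arrays sit at 6.89 to 7.11 for Zbtb32 and at 8.03 to 8.70 for Zbtb7b, and the other 8 arrays at 9.85 to 10.84 and 6.30 to 7.23.

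Group means were 6.99 ± 0.11 (SD, n = 3) in wild-type CD4 cells, 10.35 ± 0.70 (n = 2) in wild-type CD8 cells, 10.44 ± 0.33 (n = 3) in mutant CD4 cells and 10.60 ± 0.35 (n = 3) in mutant double-positive cells. In this order only the first step, from 6.99 to 10.35, was larger than the spread within the groups beside it. The low level was also the steady one in log2 value: among 2754 probe sets with a like mean in wild-type CD4 cells, 7.8% had a smaller SD. The median SD of these was 0.37, against 0.13, 0.22 and 0.24 at like mean in mutant CD4, mutant double-positive and wild-type CD8 cells. In mutant CD4 cells, 91.6% of 298 probe sets of like mean had a smaller SD than Zbtb32, in the double-positive subset 77.5% of 200, and in wild-type CD8 cells 94.2% of 292. The wild-type CD8 pair differed by 0.99, more than the range of 0.62 and 0.61 within the mutant groups.

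The separation of levels was the same on a scale that does not depend on the width of each array, though the wild-type CD4 arrays spread most on it. Zbtb32 stood at the 69.5, 67.2 and 78.7 percentile of all probe sets of the array in wild-type CD4 replicates 1, 2 and 3. The highest of these was replicate 3, the array of narrow range. On the other 8 arrays it stood between the 97.6 and the 99.3 percentile, with 112 to 406 probe sets brighter than it, against 3553 to 5464 in wild-type CD4 cells. Above the median of its own array, Zbtb32 read 1.19 to 1.31 on the wild-type CD4 arrays and 4.19 to 5.26 on the others. The wild-type CD4 signal was thus above the middle of each array.

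Expressed as differences from wild-type CD4 cells, Zbtb32 was higher by 3.44 (SE 0.28, 10.9-fold) in mutant CD4 cells and by 3.60 (SE 0.28, 12.2-fold) in mutant double-positive cells. In wild-type CD8 cells it was higher by 3.35 (SE 0.32, 10.2-fold). All 3 differences share the same wild-type CD4 arrays. On the 9 arrays they were 3.50, 3.56 and 3.41.

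The estimated differences among the 3 groups with high Zbtb32 do not use the wild-type CD4 arrays. They were tested with limma over all 16673 probe sets. Their SE, interval and p rest on a spread estimated from all groups together, the wild-type CD4 arrays included. The mutant arrays did enter the choice of the gene, so these tests are not fully independent of it. Mutant double-positive cells read 0.16 above mutant CD4 cells (SE 0.28, 95% interval -0.46 to 0.78, limma adjusted p = 0.785, n = 3 and 3). No change in Zbtb32 was detected between mutant cells with and without CD8 on the surface, and the interval reaches from 0.725-fold to 1.72-fold.

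Against wild-type CD8 cells (n = 2), mutant CD4 cells read 0.09 higher (SE 0.32, interval -0.60 to 0.79, limma adjusted p = 1, n = 3), and mutant double-positive cells read 0.25 higher (SE 0.32, interval -0.44 to 0.95, limma adjusted p = 0.828, n = 3). As folds, these intervals run from 0.658 to 1.73 and from 0.735 to 1.93. The sign of both turned with the wild-type CD8 array that was kept: without replicate 1 they were -0.40 and -0.24, and without replicate 2 they were 0.59 and 0.75. None of the 3 tests shows that the levels are equal. Few probe sets of any kind passed between these groups: 0% of 16673 between the mutant subsets, 0.018% for the mutant CD4 subset against wild-type CD8 cells and 0.006% for the double-positive subset. At an unadjusted limma p under 0.05 there were 338 (2.03%), 398 (2.39%) and 478 (2.87%). These shares lie under the one that such a threshold lets through where nothing differs. The scarcity of calls thus does not show that the groups are alike.

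**Figure D2:**
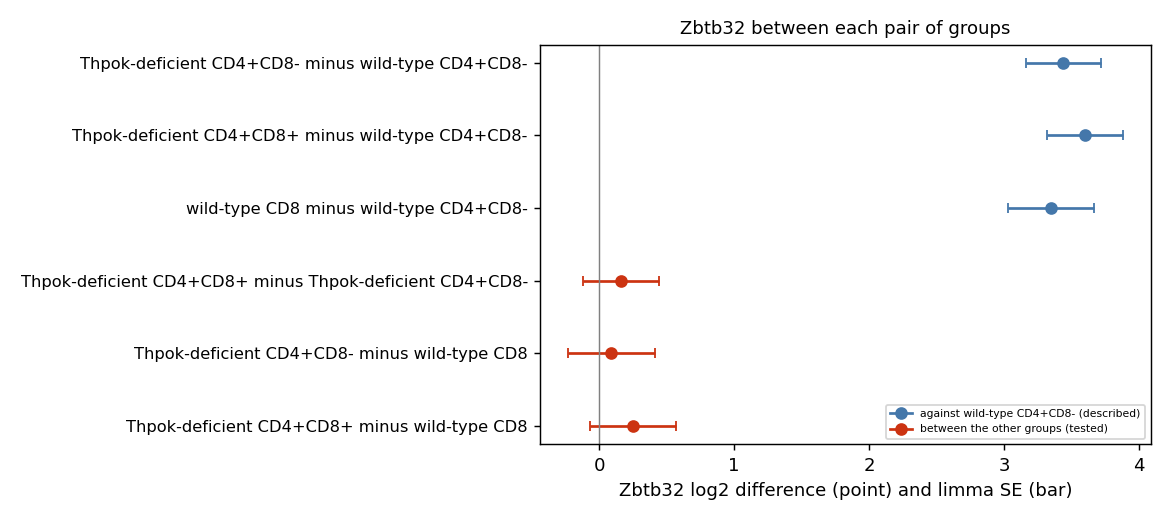
Zbtb32 log2 difference (x axis) for each pair of groups, with the limma SE as the bar. The upper 3 points, against wild-type CD4 cells, lie at 3.35 to 3.60 and are a description; the lower 3, among the other groups, lie at 0.09 to 0.25 with bars that cross 0.

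By size alone Zbtb32 was not the largest rise. In mutant CD4 cells it ranked 4 among 16673 probe sets, after P2rx3 (3.73, SE 0.52), a probe set shared by Klrc1 and Klrc2 (3.66, SE 0.80) and Gzmb (3.53, SE 1.10), and before a probe set shared by Klrk1 and Clec7a (3.25, SE 0.54). P2rx3 encodes an ATP-gated ion channel, the Klr genes encode NK-type receptors, and Gzmb encodes granzyme B. In mutant double-positive cells it ranked 3, after Cd8a (4.77, SE 0.41) and Il10 (3.65, SE 0.56), and before P2rx3 (3.58, SE 0.52) and Gzmb (3.54, SE 1.10). In wild-type CD8 cells it ranked 11.

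The separation can also be read without a model, as the gap between the lowest of the 8 other arrays and the highest wild-type CD4 array. This gap was 2.74 for Zbtb32, and it was the only probe set with a gap of at least 2. The next were Gzmk (1.92) and Prf1 (1.61), which encode granzyme K and perforin of cytotoxic granules, Tnfrsf9 (1.48), the costimulatory receptor 4-1BB, and P2rx3 (1.45). In all, 646 probe sets (3.87%) had every other array above every wild-type CD4 array, and 17 of them had a gap of at least 1. In the opposite direction 304 probe sets (1.82%) had no overlap, led by Amigo2, an adhesion protein gene, with a gap of 2.01. Zbtb32 was chosen for its gain, so its first place is a description.

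Genes with the pattern most like that of Zbtb32 were found by the root mean square difference between the log2 values of a gene and those of Zbtb32 over the 11 arrays, after the mean of each gene had been taken away. A gene that does not vary would have a difference of 1.58, and the median over 14395 genes was 1.64. The nearest was P2rx3 at 0.56, followed by Gzmk at 0.64, Prf1 at 0.65, Adam8, which encodes a membrane metalloprotease, at 0.66 and Tnfrsf9 at 0.69. Usp11, a deubiquitinase gene, also stood at 0.69, Gpr65, which encodes an acid-sensing receptor, at 0.72, Nt5dc2 at 0.73 and Il10, an immunosuppressive cytokine gene, at 0.74. Slc43a3, a transporter gene (0.79), E2f8, a transcription factor gene of the cell cycle (0.85), and Fads2, a fatty acid desaturase gene (0.86), completed the nearest 12. These genes were picked by their pattern over the same arrays, so no test is given for them here. Il10 is also a member of the cytokine list below, where its limma results are given. Those results are no separate evidence for its likeness to Zbtb32.

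P2rx3 read 6.15, 7.42 and 5.52 in wild-type CD4 cells, 9.95, 10.48 and 9.85 in mutant CD4 cells, 9.75, 10.42 and 9.67 in mutant double-positive cells, and 8.87 and 10.61 in wild-type CD8 cells. Its wild-type CD4 arrays spread over more of the scale than those of Zbtb32 (SD 0.97 against 0.11), and its lower wild-type CD8 array was also replicate 1. Gzmk and Prf1 differed from Zbtb32 in the order of the high groups: their means were highest in wild-type CD8 cells (7.70 ± 0.26 and 9.83 ± 0.53, SD, n = 2) and lower in mutant CD4 cells (Gzmk 7.00 to 7.01 on the 3 arrays, Prf1 9.08 ± 0.39, SD, n = 3). Gpr65 read 7.64 to 8.26 on the 8 arrays of the other groups against 5.72 to 6.36 in wild-type CD4 cells. Il10 read 7.01, 5.66 and 4.52 in wild-type CD4 replicates 1, 2 and 3, lowest on the array of narrow range, whereas Zbtb32 read highest there. On the 9 arrays 10 of the 12 genes were again among the nearest 12, but only 4 of the 12 were among the 12 of highest Pearson correlation.

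**Figure D3:**
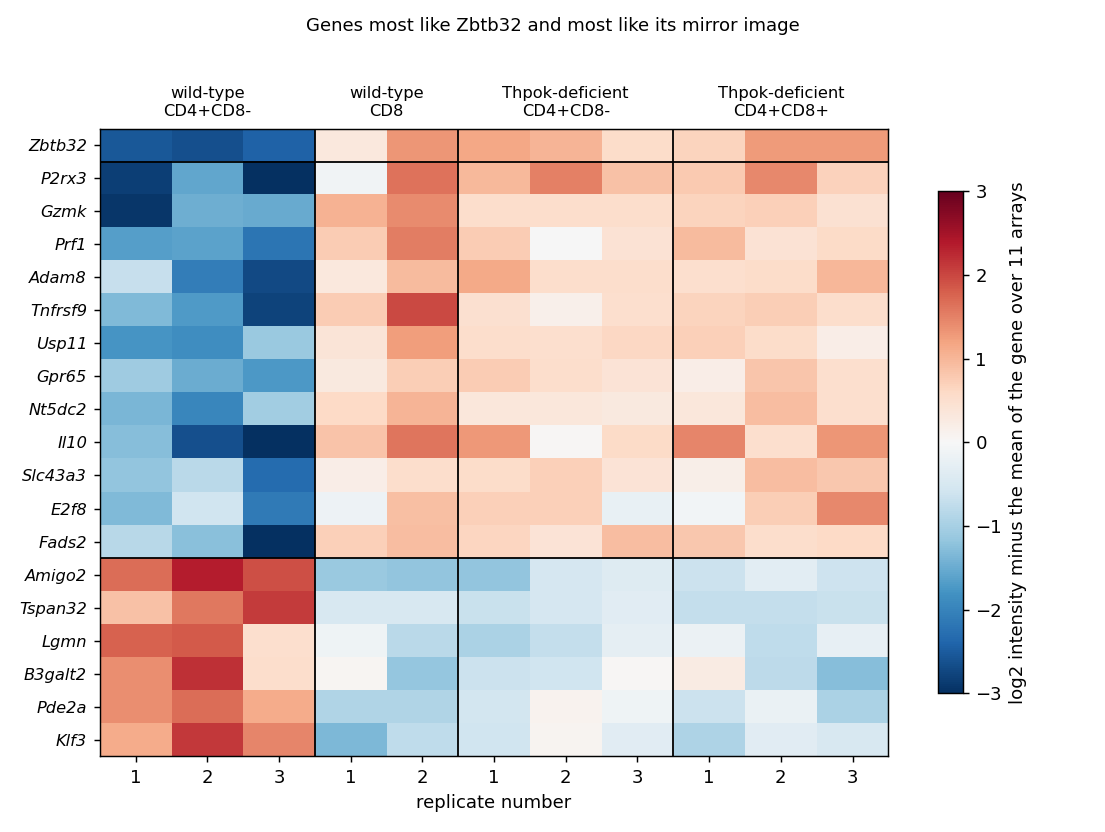
Log2 intensity of each gene minus its mean over the 11 arrays (colour scale), one row per gene and one column per array, grouped as marked. Zbtb32 is at the top, then the 12 genes nearest to it (difference 0.56 to 0.86) and the 6 nearest to its mirror image (0.55 to 0.83); the wild-type CD4 columns lie below the other 8 in the rows of Zbtb32 and the genes like it and above them in the 6 mirror rows.

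The mirror image of Zbtb32, high in wild-type CD4 cells and low elsewhere, was matched most closely by Amigo2, at a root mean square difference of 0.55. Amigo2 read 8.15, 8.81 and 8.39 in wild-type CD4 cells and 5.28 to 6.14 on the other arrays. Tspan32, a T cell tetraspanin gene (0.74), Lgmn, which encodes the lysosomal protease legumain (0.79), B3galt2, a galactosyltransferase gene (0.80), Pde2a, a phosphodiesterase gene (0.82), and Klf3, a zinc finger factor gene (0.83), followed. Of these 6, 4 were again among the nearest 6 on the 9 arrays, and 2 were among the 6 genes of most negative Pearson correlation.

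Among the BTB zinc finger genes no other member measured had a rise near that of Zbtb32. Of the 32 other members measured, 0 were called in mutant CD4 cells against wild-type CD4 cells (limma, 3 at an unadjusted p under 0.05, as were 10.4% of all probe sets), where 0.084% of all probe sets were called, 0.066% as higher and 0.018% as lower. In mutant double-positive cells 0 rose and 1 fell, Zbtb7b (7 at an unadjusted p under 0.05, 6 of them lower, against 9.34% of all probe sets), where 0.204% of all probe sets were called, 0.138% as higher and 0.066% as lower (34 probe sets, or 86 with the replicate number as a block). In wild-type CD8 cells 0 of 32 were called (4 at an unadjusted p under 0.05, against 11.5% of all probe sets), where the called share was 0.534% of all, 0.3% as higher and 0.234% as lower. Their median differences were -0.21, -0.10 and -0.18, beside -0.15, 0.00 and -0.14 for all probe sets. The highest value of any other member was that of Zbtb8a, at 0.61 (SE 0.17, adjusted p = 0.191), 0.63 (SE 0.17, adjusted p = 0.172) and 0.90 (SE 0.19, adjusted p = 0.0686) by limma. Its value in wild-type CD8 cells on the 9 arrays was 0.86 (adjusted p = 0.0404).

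Zbtb7b had the opposite pattern. It read 8.70, 8.55 and 8.03 in wild-type CD4 cells, 6.77, 6.77 and 7.17 in mutant CD4 cells, 6.79, 6.30 and 7.00 in mutant double-positive cells, and 6.89 and 7.23 in wild-type CD8 cells. The 3 arrays highest for Zbtb7b were the 3 lowest for Zbtb32. Zbtb7b fell by 1.73 (SE 0.25, limma adjusted p = 0.0246) in mutant double-positive cells and stood at -1.53 (SE 0.25, adjusted p = 0.0562) in the mutant CD4 subset and at -1.37 (SE 0.28, adjusted p = 0.0653) in wild-type CD8 cells. On the 9 arrays the last 2 were -1.72 (adjusted p = 0.0326) and -1.57 (adjusted p = 0.0213). The call in mutant double-positive cells was kept without wild-type CD4 replicate 1 or 3 or either wild-type CD8 array, and it was lost without any 1 of the other 7 arrays (adjusted p = 0.05 to 0.132). Where its probes lie relative to the floxed exons was not known here, so this is a check of the labels only in part. Zbtb7a, the closest relative of Zbtb7b, had differences of 0.14, 0.26 and 0.28 (SE 0.27, 0.27 and 0.31), and Bcl6, the repressor of follicular helper cells, of -0.33, -0.73 and -0.85 (SE 0.23, 0.23 and 0.25), of which 0 passed. After a further quantile normalization Bcl6 passed in wild-type CD8 cells (-1.09, limma adjusted p = 0.0332). Zbtb18 stood at -0.74, -0.72 and -0.89.

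**Figure D4:**
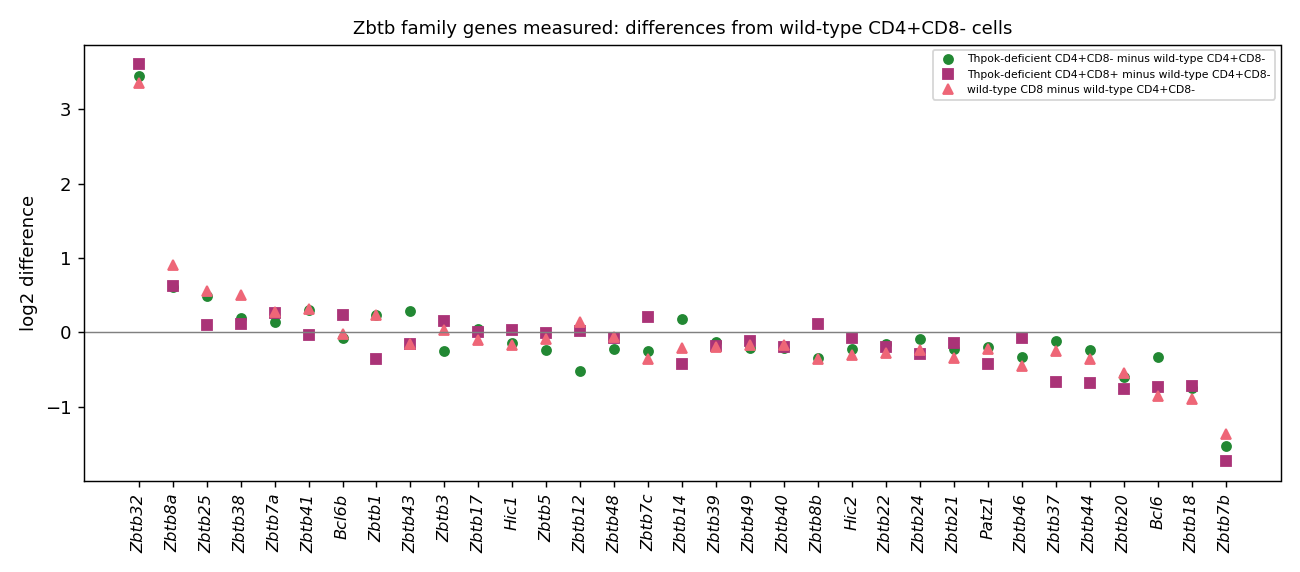
Log2 difference from wild-type CD4 cells (y axis) for Zbtb32 and the 32 other BTB zinc finger genes measured (x axis, ordered by mean difference), with a symbol for each of the 3 other groups. Zbtb32 stands at 3.35 to 3.60, Zbtb8a is next at 0.61 to 0.90, and Zbtb7b is lowest at -1.37 to -1.73.

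Of 7 genes taken as partners or reported targets of Zbtb32, 4 were measured. Gata3, the factor whose activity Zbtb32 represses in mouse T cells, read 9.56, 9.79 and 8.82 in wild-type CD4 cells, 8.48, 8.58 and 8.73 in mutant CD4 cells, 8.80, 8.57 and 8.24 in mutant double-positive cells, and 6.95 and 7.82 in wild-type CD8 cells. The wild-type CD8 arrays were the lowest, and the mutant arrays lay between. Gata3 fell by 2.00 (SE 0.33, limma adjusted p = 0.0273) in wild-type CD8 cells and stood at -0.79 (SE 0.29, adjusted p = 0.359) and -0.85 (SE 0.29, adjusted p = 0.319) in the mutant CD4 and double-positive cells. Against wild-type CD8 cells, from which Zbtb32 differed by less than its SE, Gata3 read 1.22 and 1.15 higher in the mutant CD4 and double-positive cells (SE 0.33 each), and neither difference passed (limma adjusted p = 1 and 0.828). The call in wild-type CD8 cells was kept without wild-type CD4 replicate 3 or mutant double-positive replicate 1 or 3, and it was lost without any 1 of the other 8 arrays (adjusted p = 0.0516 to 0.141).

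Prdm1, which encodes Blimp-1, read 7.52, 7.58 and 5.97 in wild-type CD4 cells, 7.13, 7.08 and 7.80 in mutant CD4 cells, 8.08, 7.35 and 6.96 in mutant double-positive cells, and 7.95 and 8.47 in wild-type CD8 cells. The wild-type CD8 pair lay above the wild-type CD4 and mutant CD4 arrays, and the other groups overlapped. Its differences were 0.32, 0.45 and 1.19 (SE 0.44, 0.44 and 0.49; limma adjusted p = 0.663, 1 and 0.375), and the first turned to -0.21 on the 9 arrays. Eomes, a regulator of CD8 effector and memory cells reported to be repressed by Zbtb32 together with Blimp-1, stood at 0.64, 0.55 and 0.50 (SE 0.27, 0.27 and 0.31), and Fancc, whose product belongs to the Fanconi anaemia pathway and binds the human protein, at -0.17, -0.34 and -0.19. In this list 0 of 4 were called in either mutant group (2 and 1 at an unadjusted p under 0.05, against 10.4% and 9.34% of all probe sets), and 1 fell in wild-type CD8 cells (2 at an unadjusted p under 0.05, against 11.5%). The called shares of all probe sets were 0.084%, 0.204% and 0.534%. The list medians were 0.08, 0.06 and 0.15.

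Among 14 T cell cytokine genes measured, which include those that Zbtb32 is known to restrain, 0 were called in mutant CD4 cells (limma, 0.084% of all probe sets called), and Il10 was the 1 gene that rose in mutant double-positive cells (3.65, SE 0.56, adjusted p = 0.0326) and in wild-type CD8 cells (3.78, SE 0.62, adjusted p = 0.0274), where 0.204% and 0.534% of all were called. At an unadjusted p under 0.05 there were 4 of the 14 in each of the 3 differences, against 10.4%, 9.34% and 11.5% of all probe sets. The Il10 call in mutant double-positive cells was lost on the 9 arrays (2.93, limma adjusted p = 0.12). It was kept without wild-type CD4 replicate 1 or 3 and lost without any 1 of the other 9 arrays (adjusted p = 0.0558 to 0.133). The Il10 call in wild-type CD8 cells was lost without wild-type CD4 replicate 2 (limma adjusted p = 0.0778) or mutant CD4 replicate 3 (adjusted p = 0.0516). Without wild-type CD8 replicate 1 or 2, which leaves 1 array in that group, the difference was 4.15 or 3.41. Ifng, the Th1 cytokine gene, stood at 1.88, 2.32 and 1.69 (SE 0.55, 0.55 and 0.62), Tnf at 1.38, 1.71 and 1.16 and Il21 at -0.80, -0.62 and -0.95. Il21 passed in wild-type CD8 cells on the 9 arrays (-1.27, limma adjusted p = 0.0276), as it did without wild-type CD4 replicate 3 alone (adjusted p = 0.0303). Ifng read 7.63 in wild-type CD4 replicate 3 against 10.48 and 9.88 in replicates 1 and 2, and without replicate 3 its difference in mutant double-positive cells was 1.47 (limma adjusted p = 0.026). Without replicate 1 it was 2.89 (adjusted p = 0.0483). The list medians were -0.21, 0.08 and -0.25.

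Zbtb32 is induced by activation, and 16 activation-induced regulators were measured beside it. In the mutant CD4, mutant double-positive and wild-type CD8 cells 0 were called (limma), and 3, 7 and 3 were at an unadjusted p under 0.05. Of the latter, 3, 7 and 2 were higher. Over all probe sets the called shares were 0.084%, 0.204% and 0.534%, and the unadjusted shares 10.4%, 9.34% and 11.5%. Differences were positive for 12, 13 and 8 of the 16. Their medians were 0.27, 0.55 and -0.03, beside -0.15, 0.00 and -0.14 for all probe sets. Irf8, an interferon regulatory factor gene, stood at 1.30, 1.35 and 1.46 (SE 0.36, 0.36 and 0.40), Nr4a2, an orphan nuclear receptor gene, at 0.92, 1.59 and 1.81 (SE 0.38, 0.38 and 0.42), Irf4 at 0.68, 0.74 and 1.32 and Egr1 at 0.23, 0.76 and 0.84. Of 18 effector and memory regulators 0 were called in either mutant group (5 and 4 at an unadjusted p under 0.05, against the same 10.4% and 9.34%). In wild-type CD8 cells 8 were at an unadjusted p under 0.05, against 11.5%, and 1 fell, Klf2, a regulator of T cell quiescence and trafficking (-1.93, SE 0.33, limma adjusted p = 0.0349). It was kept there without wild-type CD4 replicate 1 or 3 or mutant double-positive replicate 3, and lost without any 1 of the other 8 arrays (adjusted p = 0.0519 to 0.202). Klf2 stood at -1.16 and -1.18 in the mutant groups, and the second was called with the replicate number as a block (adjusted p = 0.0427) and after a further quantile normalization (-1.24, adjusted p = 0.0399). Bach2, a repressor that keeps memory cells quiescent, stood at -0.70, -1.07 and -1.46 (the last passing on the 9 arrays at -1.56, limma adjusted p = 0.0428), Ikzf2 at 0.60, 0.43 and 1.61 and Tox at -0.72, -0.52 and -0.81. The medians of this list were -0.19, -0.25 and -0.20.

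The genes beside Zbtb32 on chromosome 7 were read next. Of the 10 nearest protein-coding genes on each side in the RefSeq order, 16 had a value, and 0 were called in any of the 3 differences (limma, 2, 4 and 3 at an unadjusted p under 0.05). Over all probe sets 0.084%, 0.204% and 0.534% were called, and 10.4%, 9.34% and 11.5% had an unadjusted p under 0.05. Kmt2b, the histone methyltransferase gene next to Zbtb32 on one side, read 8.11 to 8.61 in wild-type CD4 cells, 8.55 to 8.61 in mutant CD4 cells, 8.46 to 8.53 in mutant double-positive cells and 8.18 and 8.68 in wild-type CD8 cells. Its differences were 0.17, 0.10 and 0.03 (SE 0.19, 0.19 and 0.21), and their signs turned under other settings. Upk1a, a uroplakin gene next on the other side, stood at 0.61, 0.81 and 0.58 (SE 0.22, 0.22 and 0.25) and Cox6b1, a subunit gene of cytochrome c oxidase, at 0.65, 0.57 and 0.72. The highest values were those of Hspb6, a small heat shock protein gene, at 0.73, 1.18 and 1.30 (SE 0.41, 0.41 and 0.46), and the lowest those of Igflr1, a receptor gene of T cells, at -0.66, -0.83 and -0.74 (SE 0.29, 0.29 and 0.33). The medians of the 16 genes were -0.12, 0.06 and 0.10.

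**Figure D5:**
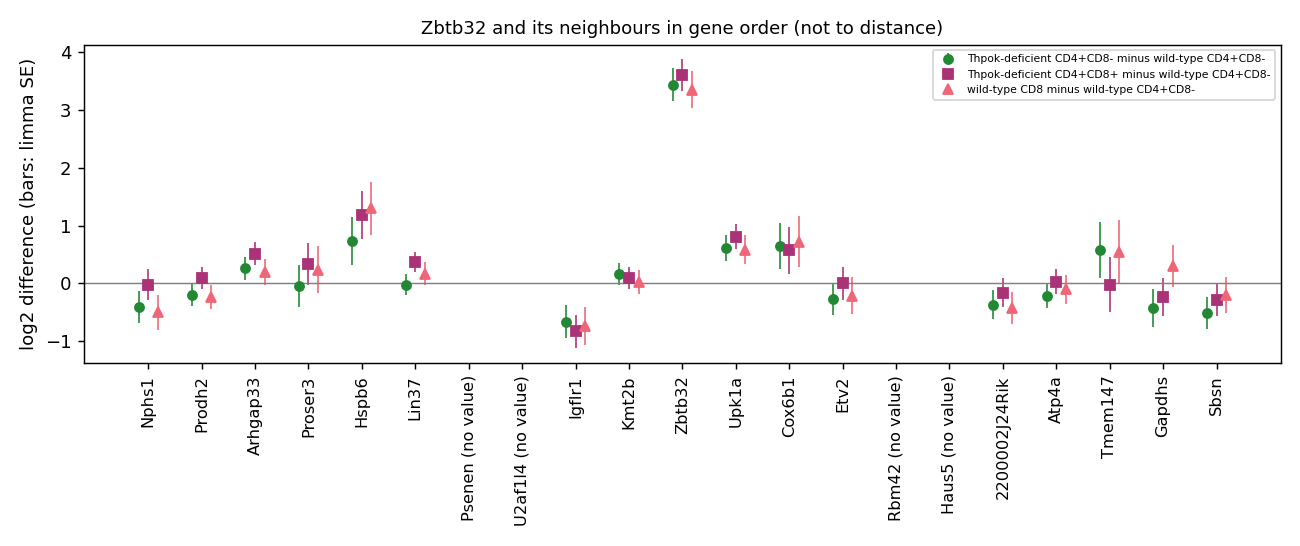
Log2 difference from wild-type CD4 cells (y axis, bars are the limma SE) for Zbtb32 and the 10 nearest protein-coding genes on each side in gene order (x axis, not to distance), with a symbol for each of the 3 other groups. Zbtb32 stands at 3.35 to 3.60 and no neighbour lies above 1.30; 4 neighbours have no value here.

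Zbtb32 is also used by activated B cells and NK cells, so markers of other cells were read in the same arrays. The mean of 9 T cell markers per array was 9.59 to 10.47 in wild-type CD4 cells and 10.06 to 10.40 on the other arrays. Cd3e, a chain of the T cell receptor complex, read 11.50 to 12.05 over all groups. Of these markers 0, 0 and 1 were called (limma, 1, 2 and 3 at an unadjusted p under 0.05), against called shares of 0.084%, 0.204% and 0.534% and unadjusted shares of 10.4%, 9.34% and 11.5% over all probe sets. The 1 called was Cd5, a T cell inhibitory receptor gene, which fell by 1.36 (SE 0.18, adjusted p = 0.00873) in wild-type CD8 cells. Without wild-type CD8 replicate 1 or 2 this call was lost (adjusted p = 0.0726 and 0.0561).

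The mean of 9 B cell markers was 4.22 to 5.10 in wild-type CD4 cells, 4.19 to 4.34 and 4.46 to 4.98 in mutant CD4 and double-positive cells, and 4.51 on both wild-type CD8 arrays. The B cell gene Ms4a1 (CD20) read 2.96 to 4.18 over all arrays (3.44, 3.01 and 4.18 in wild-type CD4 replicates 1, 2 and 3, the last being the array of narrow range). Of the 9 markers 0 were called in the 3 differences (0, 1 and 2 at an unadjusted p under 0.05, against 10.4%, 9.34% and 11.5% of all probe sets here and for the lists that follow), with medians of -0.37, -0.04 and -0.24. Cd79b, a B cell receptor subunit gene, had the highest differences of the list, and read 4.99 ± 0.71 in wild-type CD4 cells and 7.69 ± 0.32 (n = 2) in wild-type CD8 cells (adjusted p = 0.0513). It read 5.52 ± 0.76 in mutant CD4 cells and 6.33 ± 0.65 in mutant double-positive cells (SD, n = 3), and its part in the Zbtb32 values was not tested. Of the NK cell list 3 markers had a value, 0 were called (0 at an unadjusted p under 0.05), and their mean was 3.48 to 3.99 in wild-type CD4 cells and 3.57 to 3.98 on the other arrays. Klrc1 and Klrk1 of this list had no probe set of their own and are not in these counts. The probe sets they share with Klrc2 and Clec7a rose by 3.66 and 3.25 in mutant CD4 cells. Their part in the Zbtb32 values was not tested. Ncr1, the NK cell receptor NKp46, read 3.01 to 3.52 over all arrays. For 8 myeloid markers the mean was 4.45 to 4.83 in wild-type CD4 cells and 4.45 to 5.01 on the others, with 0 called (1 in each difference at an unadjusted p under 0.05). That 1 was Cd68, a lysosomal protein gene of macrophages, which read 7.05 to 7.37 in wild-type CD4 cells, 7.70 to 8.53 in mutant CD4 cells, 7.49 to 8.71 in mutant double-positive cells, and 8.38 and 8.47 in wild-type CD8 cells. Like Zbtb32, Cd68 thus had every other array above every wild-type CD4 array, with differences of 1.03, 1.09 and 1.22 (SE 0.33, 0.33 and 0.37, limma adjusted p = 0.264, 0.248 and 0.199), and its part in the Zbtb32 values was not tested. For 5 MHC class II genes the mean was 5.80 to 6.45 in wild-type CD4 cells, 5.62 to 6.66 in mutant CD4 cells, 5.82 to 6.73 in mutant double-positive cells, and 6.43 and 6.67 in wild-type CD8 cells, with 0 called (0 at an unadjusted p under 0.05). The medians of this list were 0.11, 0.27 and 0.76. H2-Ab1, a class II chain gene, stood at 0.16, 0.23 and 1.62 (SE 0.66, 0.66 and 0.74), and the part of these genes in the Zbtb32 values was not tested.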

How the data were processed

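RNA of 11 sorted samples in 4 groups was measured on Affymetrix arrays. Groups are wild-type CD4+CD8- (wild-type CD4), wild-type CD8, Thpokf/f CD2cre CD4+CD8- (mutant CD4) and Thpokf/f CD2cre CD4+CD8+ (mutant double-positive). The series design text names an exon array, while the labels' protocols name a labelling kit for 3' expression arrays, and this was not settled. The authors deposited log2 intensities per probe set. Partek, RMA and the build mm9 are named, without versions, per the submitters' processing notes. RMA normally equalises the distributions of arrays, yet the arrays differed in spread, and this was left in the values. How exon probes were summarised and with which filters was not given in the sources used here. For arrays, their number limits the precision.

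Of 16673 probe sets, 14970 carried 1 symbol, and 14920 of these were matched to RefSeq genes by Entrez identifier. Where several probe sets named a gene, that of highest mean stood for it. limma 3.58.1 under R 4.3.3 was fitted to all 11 arrays with 1 coefficient per group (7 residual and 3.80 prior degrees of freedom). Tests were two-sided, and an adjusted p (Benjamini-Hochberg, all probe sets) under 0.05 was called. The fit was tested on simulated data. Zbtb32, the gene lists, the naming rule and the alternatives were chosen with earlier results of these data known. Named genes are the 12 nearest and 6 mirror genes by pattern (predicted genes, pseudogenes and receptor segments left out), the 5 largest rises of the mutant groups, list members past the threshold and up to 4 more by size, and 9 set genes where measured. The lists are the Zbtb family, partners and targets, cytokines, activation-induced regulators, effector and memory regulators, chromosomal neighbours and markers of T, B, myeloid and NK cells and MHC class II genes. Promoter sequences are those of RefSeq (GRCm38.p6), and no other coordinates were used.

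No label ties a replicate number to a preparation. After removal of group means, same-number arrays of wild-type CD4 and mutant double-positive cells correlated at 0.650, 0.429 and 0.724 across genes, so the numbers were read as pairs there, from the data alone. The value of 0.724 joins the 2 arrays of narrow range. Wild-type CD4 replicate 2 and double-positive replicate 1, of unlike number, reached 0.524, and the other unlike pairs lay from -0.688 to 0.019. With 2 cell preparations stated for 3 replicate numbers, the pairing remains uncertain. The blocked count and calls are given beside the comparison of these groups where they differ.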

Additional observations from a re-analysis of the deposited data

How the results depend on the processing

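The 3 differences of Zbtb32 from wild-type CD4 cells kept their sign under all 16 alternatives run (a further quantile normalization, median centring, a filter on mean signal of 6, the replicate block, the 9 arrays and each array left out), from 3.25 to 3.63 and 3.46 to 3.81 in the mutant CD4 and double-positive cells and from 2.86 to 3.84 in wild-type CD8 cells. With the replicate block they were 3.44, 3.60 and 3.34. The rank of Zbtb32 by size ran from 1 to 8, 2 to 7 and 6 to 14. All 8 other arrays also stood above the wild-type CD4 arrays by percentile. The differences among the other 3 groups never passed (adjusted p = 0.523 to 1). Leaving out arrays gave -0.02 to 0.36 between the mutant subsets, -0.40 to 0.59 for the mutant CD4 subset against wild-type CD8 cells (-0.03 without mutant CD4 replicate 1) and -0.24 to 0.75 for the double-positive subset. Array weights were not used because their estimation did not converge. By Pearson correlation 4 of the 12 nearest genes and 2 of the 6 mirror genes were kept.

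Counts of called probe sets against wild-type CD4 cells were 14, 34 and 89 in the mutant CD4, mutant double-positive and wild-type CD8 cells. They were 17, 146 and 240 after quantile normalization, 8, 11 and 52 after centring, 37, 68 and 144 with the filter, 264, 86 and 116 with the block, 39, 28 and 268 on the 9 arrays, and 2 to 35, 4 to 70 and 8 to 129 with 1 array left out. Among the other groups they were 0, 3 and 1, and 0 to 5 under the alternatives. Calls were gained too. In mutant CD4 cells Il10 passed with the filter (adjusted p = 0.0317), the block (0.0292) and without wild-type CD4 replicate 1 (0.0124), Zbtb7b with quantile normalization (0.0399), the filter (0.0297), the block (0.0334) and without wild-type CD4 replicate 3 (0.0266), and Irf8 (0.0389) and Klf2 (0.0341) with the block. In wild-type CD8 cells Bach2 passed with quantile normalization (0.0171), the filter (0.0354) and the block (0.0357), and Zbtb7b with quantile normalization (0.0263), the filter (0.0362) and without wild-type CD4 replicate 3 (0.0284). The numbers were read as pairs in the comparison of mutant double-positive with wild-type CD4 cells alone. Median centring ended the calls of Il10 (3.64, adjusted p = 0.102) and Zbtb7b (-1.74, 0.0709) in mutant double-positive cells and of Gata3 (-1.90, 0.111), Il10 (3.89, 0.0589) and Klf2 (-1.82, 0.122) in wild-type CD8 cells.

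Some values that had not passed turned in sign. Under quantile normalization Fancc was 0.11 and 0.07 in mutant CD4 and wild-type CD8 cells, Zbtb7a -0.05 in the former, and Kmt2b -0.08 and -0.21. On the 9 arrays Prdm1 was -0.21 and Zbtb7a -0.17 in mutant CD4 cells, Zbtb7a -0.10 and Kmt2b -0.03 in the double-positive subset, and Zbtb7a -0.04 and Kmt2b -0.12 in wild-type CD8 cells, and Kmt2b was -0.03 there with the block. With each array left out in turn, values in mutant CD4 cells ran from -0.21 to 0.60 for Prdm1, -0.32 to 0.06 for Fancc, -0.05 to 0.44 for Egr1 and -0.17 to 0.36 for Zbtb7a. In mutant double-positive cells they ran from -0.08 to 0.72 for Prdm1, -0.06 to 0.48 for Zbtb7a and -0.05 to 0.20 for Kmt2b, and in wild-type CD8 cells from -0.34 to 0.03 for Fancc, -0.04 to 0.50 for Zbtb7a and -0.23 to 0.28 for Kmt2b. The causes were not tested.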
